A study of Mus musculus with 43 samples.

Results

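The autophagy and lysosome genes described here are the members of 10 families whose mouse symbols start with Atg, Ulk, Map1lc3, Gabarap, Wipi, Lamtor, Rrag, Atp6v or Lamp, or with Cts and a single letter. They were found by symbol, with no use of expression, and 35 of the 10127 genes in the table qualified. The annotation lists 83 such genes. The other 48, among them Ctsb, Ctsd, Lamp2, Map1lc3a and Atg3, were not analysed here. Of these, 40 lie in a range of gene identifiers that the table used here does not cover. Only the Wipi family, with 2 of 2 annotated genes, is therefore described as a whole.

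RNA was sequenced from the arcuate nucleus (ARC), dorsomedial hypothalamus (DMH), paraventricular nucleus (PVN) and ventromedial hypothalamus (VMH) of 12 male mice aged 17 to 19 weeks. Every animal, of strain C57/BL6 per the labels, lacked Snord116 on the paternal chromosome (line B6(Cg)-Snord116tm1.1Uta/J, written Snord116+/-P), which removes from the active allele a cluster of small nucleolar RNAs lost in Prader-Willi syndrome. The fed groups ate ad libitum and the fasted groups had no food for 24 hours before dissection. Nuclei were cut by laser from sections stained with cresyl violet, so a library holds neurons, glia and vessels together. The 41 libraries were 4 fasted and 5 fed from the ARC, 5 and 6 from the DMH, 5 and 5 from the PVN, and 6 and 5 from the VMH. All mice carried the deletion, and wild-type animals were not analysed here. The comparisons therefore ask how these genes are distributed over the nuclei of Snord116+/-P mice and whether food deprivation moves them.

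The labels put the libraries in 3 batches of 10, 15 and 16, each with 2 fasted and 2 fed mice. The study's methods say that laser capture and library preparation were done in batches of brains, and the labels do not say whether theirs are the same ones. A library is named here by nucleus and mouse number. Estimated depth was 1.94 to 8.23 M reads per library, with a median of 4.10 M, and VMH-311 was the shallowest. Markers matched the labelled nuclei. Npy had a median of 326 CPM (counts per M reads) in the ARC and medians of at most 3.00 CPM elsewhere, Avp had 692 CPM in the PVN, and Fezf1 had 230 CPM in the VMH. Npvf had 69.7 CPM in the DMH, where Hcrt at 91.9 CPM and Pmch at 223 CPM, markers of the neighbouring lateral hypothalamus, were also present.

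Autophagy delivers cytoplasm to the lysosome for breakdown and is known to be induced when nutrients are short. The Ulk1 kinase complex starts it, Atg14 directs lipid kinase activity to the forming membrane, Wipi proteins and Atg2b bind and feed that membrane, Atg9a and Atg9b bring it lipid, and Atg5, Atg7, Atg12 and Atg16l2 belong to the conjugation systems that attach Map1lc3 and Gabarap proteins to it. Lysosomes are acidified by the V-ATPase, built from Atp6v1 subunits in the cytosol and Atp6v0 subunits in the membrane, and they hold the cathepsins (Cts) and the membrane glycoprotein Lamp1. The Ragulator (Lamtor) and the Rag GTPases (Rrag) sit on the lysosome and recruit the growth kinase complex mTORC1 when amino acids are plentiful. Transcription factors of the TFEB family bind an E-box, CACGTG, in many lysosomal promoters.

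The promoters of the members held that E-box more often than promoters in general, by count and without a test. Promoter sequences of RefSeq (GRCm38.p6), running from 250 bases before to 50 bases after a gene's start, matched 29 of the 35 members, and Atg4a had a pair of them. CACGTG, which reads the same on both strands, was present in 10 of the 30 member promoters (33.3%), in 7.15% of all 32851 promoters and in 9.23% of the 9107 promoters of genes in the table. The longer GTCACGTG, which contains it, was in 5 member promoters (16.7%, against 2.25% of all promoters and 3.52% of those of genes in the table, either strand). TCACGTGA, which also contains it, was in 1 (3.33%, against 0.974% and 1.55%), and the forkhead element GTAAACA, searched on both strands, was in 0 (against 3.65% and 2.70%). Lamp1 held 4 matches, Rragb 3, Atp6v0b and Lamtor4 2 each, and Atg5, Atg7, Atg14, Atp6v1a, Ctsf and Lamtor1 1 each.

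The windows of 30 bases below show the E-box in capitals for the members that hold one and were either called in at least 1 nucleus (Atp6v1a, Lamp1, Ctsf, Lamtor1 and Atg14) or among the 10 highest per kilobase (Atp6v0b and Rragb). Each is written 5′ to 3′ on the strand of the gene.
Atp6v1a, chr16:44139373-44139402, minus strand: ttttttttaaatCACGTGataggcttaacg
Atp6v0b, chr4:117887348-117887377, minus strand: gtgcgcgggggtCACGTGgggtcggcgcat
Lamp1, chr8:13159088-13159117, plus strand: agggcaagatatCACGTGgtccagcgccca
Lamp1, chr8:13159121-13159150, plus strand: gatgccgactggCACGTGaccacatcacgt
Ctsf, chr19:4855074-4855103, plus strand: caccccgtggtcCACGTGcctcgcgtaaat
Lamtor1, chr7:101905757-101905786, plus strand: ctgccttcctatCACGTGccgcgggtccgc
Rragb, chrX:153139910-153139939, plus strand: aaagggtagcggCACGTGacaggccctggg
Atg14, chr14:47568418-47568447, minus strand: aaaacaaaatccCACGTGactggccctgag
In Lamp1 the E-box of the windows shown began 61 and 28 bases before the start site, in Atp6v0b 36 bases and in Rragb 36 bases before it. These are matches of letters, and binding was not measured.

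The members spanned a wide range of levels, with an autophagosome coat gene, a lysosomal membrane gene and 3 V-ATPase genes at the top. To compare genes, CPM was divided by the kilobases of merged exons of each gene. Gabarapl1, which coats autophagosomes, had the highest mean at 212 CPM per kb, followed by Lamp1 at 131, the catalytic V-ATPase subunit Atp6v1a at 114, the proton channel subunit Atp6v0b at 67.5 and Atp6v0e2 at 63.0 CPM per kb. Gabarapl1 lies at chr6:129533160-129542346 and Atp6v1a at chr16:44085402-44139705 of GRCm38.

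Next came Atp6v1g1 at 47.1, Gabarapl2 at 44.5, Lamtor5 at 38.2, Rraga at 35.2, Rragb at 31.8 and Ctss at 30.7 CPM per kb. The core Atg genes were lower, from 11.8 CPM per kb for Atg9a down to 1.62 for Atg16l2. Kinase genes ran from 13.7 for Ulk1 through 10.1 for Ulk4 to 2.55 for Ulk3, and the Wipi pair stood at 6.91 for Wipi2 and 5.59 for Wipi1 CPM per kb. The lowest of all was Ctsc, a protease that activates others in immune cells, at 0.822 CPM per kb. Taking the longest coding transcript instead of merged exons moved Atp6v1h, a regulatory V-ATPase subunit, from rank 20 to rank 8 and left Gabarapl1 first. That length also put Atp6v1a above Lamp1, Ulk4 above Ulk1 and Atg2b above Atg9a, the reverse of the order by merged exons. Ranks in the middle of the order, and the order within these pairs, are therefore uncertain. Exons of 13 of the 35 members overlap those of another gene, by 0.295% to 32.6% of their exon bases. The share was 32.6% for Atg9a, 28.3% for Gabarapl1 (1700101I11Rik), 18.7% for Lamtor1 (Lrrc51), 11.8% for Atp6v0b (Gm12841) and under 10% for the others, Lamp1 (Grtp1) among them at 9.31%. How reads were assigned to genes, and whether by strand, is not given in the sources used here, so the values of these members are uncertain to that extent.

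**Figure D1:**
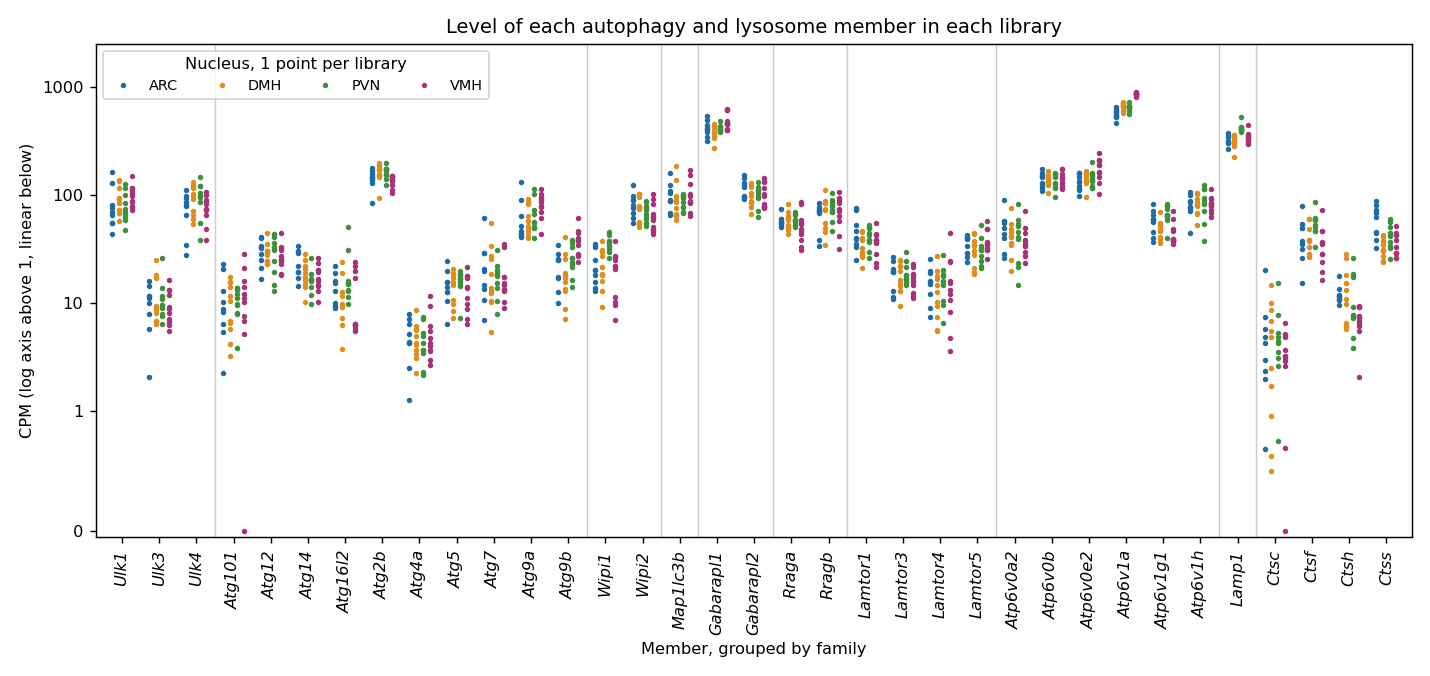
Level of the 35 members in CPM (vertical axis, logarithmic above 1 CPM) in each of 41 libraries, 1 point per library, coloured by nucleus and grouped by family. Atp6v1a, Gabarapl1 and Lamp1 stand above the others, and Ctsc and Atg4a are lowest.

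In the median, members varied less between libraries of a group than genes in general. The sets were not matched for level, and the part of level in this difference was not tested. The median within-group SD of log2 levels was 0.45 for the 35 members and 0.58 for the 10018 genes with a mean of at least 1 CPM. Atp6v1a was the steadiest member, with a within-group SD of 0.10, then Lamp1 at 0.16, while Ctsc reached 1.22 and Atg101, a subunit of the Ulk1 complex, reached 1.08. Of the variance of a member, nucleus accounted for a median of 10.3% (all genes, 14.8%), batch for 13.5% (7.42%) and nutritional state for 1.40% (1.40%). For Atp6v1a the share of nucleus was 84.4% and for Lamp1 54.0%. For Ulk4, Rragb, Ulk1 and Map1lc3b the batch took 67.9%, 65.7%, 63.1% and 58.9%.

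The first comparison asked whether the families differ between nuclei. Each nucleus was set against the mean of the other 3 within mice, with limma and Benjamini-Hochberg adjustment over all genes, and a gene was called at an adjusted p under 0.1. These comparisons share libraries and are not independent of one another. In 17 of the 35 members (48.6%) at least 1 nucleus differed, against 48.9% of all genes, a similar share. In the VMH 12 members were called (32.2% of all genes were), 6 higher and 6 lower (16% and 16.3%). The DMH had 6 (14.4% of all genes), 1 higher and 5 lower (7.94% and 6.48%). For the ARC there were 5 (21.4%), 2 higher and 3 lower (9.75% and 11.6%), and for the PVN 5 (23.1%), all higher (10.9% higher and 12.2% lower). The differences were small, and no member had a log2 difference of 1 or more in either direction, a size passed by 5.90%, 2.93%, 6.50% and 8.01% of all genes in the ARC, DMH, PVN and VMH.

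**Figure D2:**
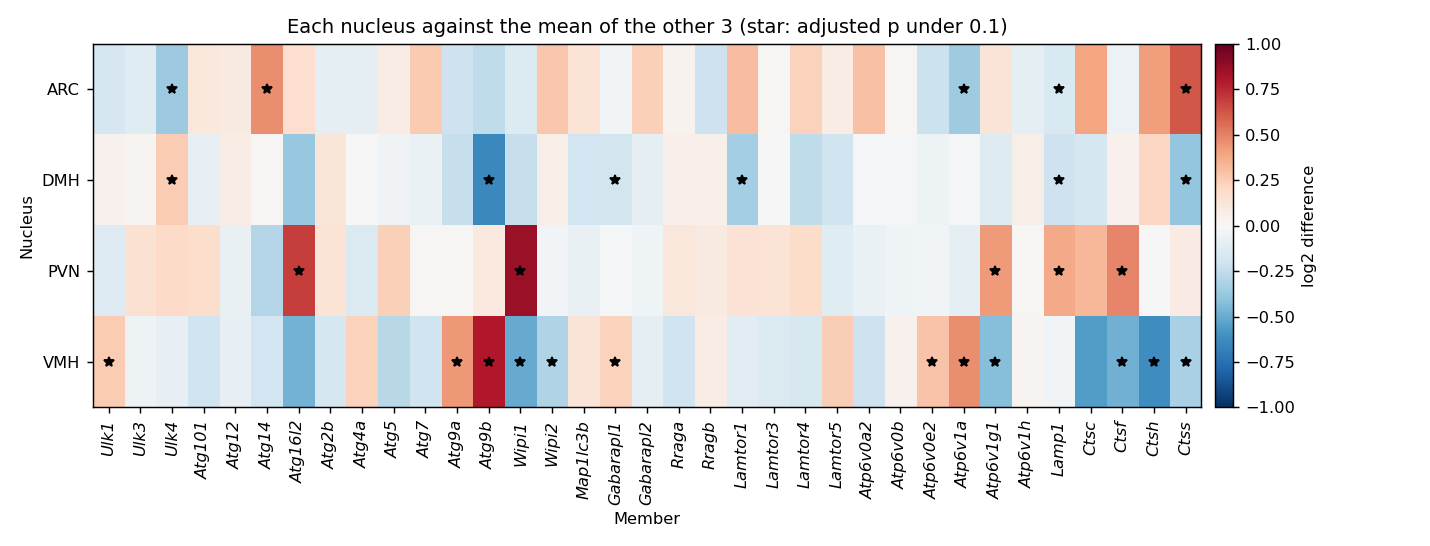
log2 difference of each nucleus (rows) from the mean of the other 3 for the 35 members (columns), red for higher and blue for lower. Stars mark an adjusted p under 0.1, and they number 5 in the ARC, 6 in the DMH, 5 in the PVN and 12 in the VMH.

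Of the V-ATPase genes, Atp6v1a separated the nuclei most cleanly. It ranged from 815 CPM through a median of 866 to 905 CPM in the 11 VMH libraries, from 464 through 557 to 652 in the ARC, from 574 through 678 to 733 in the DMH and from 566 through 646 to 731 in the PVN. All VMH libraries lay above every library of the other nuclei, a separation that 1.01% of all genes showed for the VMH in either direction. For the ARC, DMH and PVN 0 members were separate (0.336%, 0.0692% and 0.306% of all genes). The mean was 862 ± 24.98 CPM (SD, n = 11) in the VMH and 629 ± 64.5 CPM elsewhere (n = 30), a log2 difference of 0.47 ± 0.05 (SE; limma, adjusted p = 1.50e-10), higher in 10 of the 10 mice compared. The ARC was at the other end, with 564 ± 55.8 CPM (n = 9) against 727 ± 107 CPM, a log2 difference of -0.35 ± 0.05, and was higher in 0 of 9 mice. Within batches the VMH difference was 0.51, 0.48 and 0.42, and that of the ARC -0.53, -0.29 and -0.31.

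The other subunits did not follow Atp6v1a as a group. Atp6v0e2, a small membrane subunit, was also higher in the VMH, with 178 ± 42.4 CPM against 140 ± 22.5 CPM and a log2 difference of 0.29 ± 0.09 (adjusted p = 0.0167). Atp6v1g1, a stalk subunit, went the other way: 44.5 ± 11.2 CPM in the VMH against 56.7 ± 14.0 CPM (log2 difference -0.42 ± 0.11), and 65.8 ± 11.8 CPM in the PVN against 49.4 ± 12.6 CPM (0.43 ± 0.11, higher in 10 of 10 mice). Its libraries overlapped between nuclei. Atp6v0a2, Atp6v0b and Atp6v1h were called in no nucleus.

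Of the 10 Atg genes 2 were called higher in the VMH and 0 lower, although only 3 had a positive log2 difference and the median was -0.18 (all genes -0.02). Higher as well were 1 of the 2 Gabarap and 1 of the 3 Ulk genes. Of all genes, 16% were called higher and 16.3% lower in the VMH. Atg9b, a lipid scramblase of the forming membrane, ran from 24.2 through 37.3 to 61.5 CPM in the VMH and from 7.17 through 22.3 to 40.95 CPM elsewhere. Its log2 difference was 0.80 ± 0.20 (adjusted p = 0.00210) and 10 of 10 mice were higher. Of the VMH libraries 3 lay above all others and the rest overlapped. The related Atg9a had 83.0 ± 19.9 CPM in the VMH and 62.3 ± 23.8 CPM elsewhere (0.43 ± 0.11, 9 of 10 mice), with all VMH libraries inside the range of the others. Gabarapl1 reached 489 ± 85.8 CPM against 405 ± 53.2 CPM (0.23 ± 0.06, 10 of 10 mice), and Ulk1 99.8 ± 22.6 CPM against 84.8 ± 30.2 CPM (0.25 ± 0.11, adjusted p = 0.0756). The Ulk1 difference was -0.37 in batch 1 and 0.47 and 0.34 in batches 2 and 3, and the call was lost without any of 8 mice (adjusted p up to 0.203). Exons of Atg9a overlap those of Ankzf1 on the other strand and of Gm29253 on its own strand, whose reads a count by strand would not separate. Exons of Atg9b overlap those of Nos3, which had a mean of 2.19 CPM.

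The lower members of the VMH included 3 of the 4 cathepsins, where 16.3% of all genes were called lower. Ctsh had 7.03 ± 2.11 CPM against 12.2 ± 6.41 CPM elsewhere (log2 difference -0.62 ± 0.23, adjusted p = 0.0431), a call that was lost without the mouse of VMH-311 (adjusted p = 0.185) and without batch 1 (adjusted p = 0.120). Ctsf had 35.5 ± 15.9 CPM against 46.7 ± 15.7 CPM (-0.48 ± 0.15), and Ctss 35.8 ± 8.73 CPM against 43.9 ± 16.6 CPM (-0.32 ± 0.13, adjusted p = 0.0719). The VMH was not the lowest nucleus for Ctss, whose mean was 32.7 CPM in the DMH, 42.7 in the PVN and 59.1 in the ARC. The Ctss call was lost without any of 7 mice (adjusted p up to 0.217) and with a random or no mouse block (adjusted p = 0.112 and 0.111). Ctsc, the fourth, was not called. The phosphoinositide-binding proteins Wipi1 and Wipi2 were lower than the mean of the other nuclei as well, by log2 differences of -0.50 ± 0.19 and -0.30 ± 0.12. Mean Wipi1 was 19.9 CPM in the VMH, close to 21.7 in the ARC and 21.8 in the DMH, while the PVN had 35.6 CPM. The VMH median of 22.2 CPM was above those of the ARC (20.1) and the DMH (18.6). For Wipi1 the difference was -1.02 in batch 1, 0.26 in batch 2 and -1.01 in batch 3, so it did not hold within batch 2, and the call was lost without batch 1 (adjusted p = 0.174) and without the mouse of VMH-111, VMH-305, VMH-308 or VMH-311 (adjusted p up to 0.200). For Wipi2 the values were 0.20, -0.18 and -0.63, and the call (adjusted p = 0.0589) was lost without any of 5 mice (adjusted p up to 0.195) and with a random or no mouse block (adjusted p = 0.110 and 0.109).

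Oligodendrocyte markers moved with the VMH. All 8 measured of 12 listed were called higher there, with a median log2 difference of 1.27, and their summed level was 1163 to 1828 CPM in VMH libraries and 262 to 1612 CPM in the others. Of the 5 neuronal markers measured (12 listed) 2 were called higher, the synaptic gene Syt1 (0.55) and the glutamate transporter Slc17a6 (1.59), and 2 lower, the genes of inhibitory neurons Gad1 (-3.10) and Slc32a1 (-3.43), with sums of 1140 to 1642 CPM in the VMH and 739 to 1387 CPM elsewhere. Of the 12 microglial markers measured 0 were called higher and 1 lower (median -0.09). Astrocyte markers were called higher in 1 of 7 (median 0.19). Of the 7 endothelial and mural markers 1 was higher and 1 lower (median -0.16). The part of these markers in the VMH values was not tested. Fewer cells of a type and less RNA per cell cannot be told apart in such samples.

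In the PVN the 5 called members were all higher, and they came from 5 families. Wipi1, which marks the site where autophagosomes form (chr11:109573331-109611967), ran from 26.3 through 35.4 to 45.8 CPM in the PVN and from 7.01 through 20.3 to 37.5 CPM elsewhere. The PVN values sit in the upper part of the whole range, with 4 of 10 libraries above every other. The means were 35.6 ± 5.82 CPM (n = 10) and 21.1 ± 8.47 CPM (n = 31), a log2 difference of 0.87 ± 0.19 (limma, adjusted p = 0.000777), and 10 of 10 mice were higher. Lamp1 (chr8:13159161-13175338) had 386 to 525 CPM with a median of 407 in the PVN and 227 to 441 CPM with a median of 331 elsewhere. Its log2 difference of 0.38 ± 0.06 held in 10 of 10 mice and was 0.34, 0.38 and 0.39 in the 3 batches. Lamp1 was in turn lower in the DMH (-0.20 ± 0.06) and the ARC (-0.15 ± 0.06), each set against a mean that included the high PVN. Its mean was 316 CPM in the DMH, 321 in the ARC and 344 in the VMH, beside 420 in the PVN. The ARC call was lost with TMM rescaling (adjusted p = 0.123), without batch 1 and without any of 7 mice (adjusted p up to 0.209).

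Atg16l2, a paralog of the Atg16l1 scaffold, had 19.02 ± 12.5 CPM in the PVN against 12.1 ± 6.10 CPM (log2 difference 0.69 ± 0.22, 10 of 10 mice), and Ctsf had 55.5 ± 13.8 CPM against 39.9 ± 15.5 CPM (0.49 ± 0.15, 8 of 10 mice). The Ctsf difference was 0.03 in batch 1 and 0.47 and 0.78 in the others. Atg16l2 shares exon sequence with Fchsd2. Of the endothelial and mural markers, 6 of 7 measured (12 listed) were higher in the PVN, by a median log2 difference of 1.09, and their sums were 236 to 354 CPM there and 68.4 to 253 CPM elsewhere. Oligodendrocyte markers were called lower in 5 of 8 (median -0.67, sums 363 to 638 CPM against 262 to 1828 CPM elsewhere) and astrocyte markers higher in 2 of 7 (median 0.23, sums 307 to 606 CPM against 208 to 615 CPM). Of the neuronal markers 2 were higher and 3 lower (median -0.69, sums 739 to 981 CPM against 825 to 1642 CPM). The part of these markers in the PVN values was not tested.

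ARC tissue stood out for Ctss, the cathepsin of phagocytes (chr3:95526786-95556403). It ran from 32.2 through 62.1 to 87.4 CPM in the 9 ARC libraries and from 23.8 through 35.5 to 59.6 CPM in the other 32. The means were 59.1 ± 19.8 CPM and 36.9 ± 9.44 CPM, a log2 difference of 0.62 ± 0.14 (adjusted p = 0.00105), with 7 of 9 mice higher. Of the ARC libraries 5 lay above all others. Ctss was lower in the DMH (-0.38 ± 0.13, adjusted p = 0.0590), a call lost without any of 6 mice (adjusted p up to 0.160). In brain it is mainly a gene of microglia, and of the 12 microglial markers measured (16 listed) 1 was called higher in the ARC and 0 lower, with a median log2 difference of 0.21. Their sums were 157 to 238 CPM in the ARC and 120 to 307 CPM elsewhere, ranges that overlap, and no measured marker was at 0 in all libraries. Their part in the Ctss value was not tested.

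Atg14, which directs the lipid kinase Pik3c3 to autophagosome sites, had 24.1 ± 7.02 CPM in the ARC against 17.7 ± 4.77 CPM (log2 difference 0.46 ± 0.17, adjusted p = 0.0563, 8 of 9 mice). The call was lost without the mouse of ARC-305, ARC-311 or ARC-313, with adjusted p up to 0.204. Ulk4 was lower in the ARC, with 75.1 ± 28.3 CPM against 88.9 ± 27.4 CPM (-0.37 ± 0.10), and higher in the DMH (0.26 ± 0.10, adjusted p = 0.0853, lost without batch 1, without any of 7 mice and with TMM rescaling). Among astrocyte markers 6 of 7 measured were lower in the ARC (median log2 difference -0.57, sums 208 to 284 CPM against 307 to 615 CPM elsewhere), among oligodendrocyte markers 6 of 8 (-0.77, sums 262 to 810 CPM against 363 to 1828 CPM) and among endothelial and mural markers 4 of 7 (-0.74, sums 68.4 to 131 CPM against 119 to 354 CPM). Of the neuronal markers 2 were higher (Gad1 2.51 and Slc32a1 2.28) and 3 lower (Syt1 -0.44, Tubb3 -0.55 and Slc17a6 -1.60), with sums of 825 to 1047 CPM against 739 to 1642 CPM. Their part in the ARC values was not tested.

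The remaining DMH calls were all lower. Atg9b had 18.8 ± 9.70 CPM against 28.9 ± 11.1 CPM (log2 difference -0.65 ± 0.20, adjusted p = 0.0311), a call lost without batch 1 (adjusted p = 0.159) and without the mouse of DMH-86, DMH-127 or DMH-313 (adjusted p up to 0.122). Lamtor1, the anchor of Ragulator, had 33.1 ± 8.20 CPM against 41.1 ± 12.5 CPM (-0.34 ± 0.13, adjusted p = 0.0806), lost without batch 1 (adjusted p = 0.264), with a random mouse block (adjusted p = 0.101) and without any of 7 mice (adjusted p up to 0.217). Gabarapl1 had 385 ± 54.5 CPM against 443 ± 73.6 CPM (-0.19 ± 0.06, adjusted p = 0.0454), lost without the mouse of DMH-100 or DMH-313 (adjusted p up to 0.198). Elsewhere its mean was 416 CPM in the ARC, 415 in the PVN and 489 in the VMH. When 1 mouse was left out, the count of DMH calls fell furthest of the nuclei in proportion to its size. It fell from 6 to 2 without the mouse of DMH-100, DMH-127 or DMH-313 and to 3 without that of DMH-305 or without batch 1, with Lamp1 among those left each time. Astrocyte markers were called higher in the DMH in 3 of 7 (median log2 difference 0.39, sums 368 to 615 CPM against 208 to 606 CPM elsewhere) and neuronal markers in 3 of 5, with 1 lower (median 0.59, sums 1045 to 1387 CPM against 739 to 1642 CPM). Of the 12 microglial markers 1 was higher and 1 lower (median 0.02). The part of these markers in the DMH values was not tested.

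**Figure D3:**
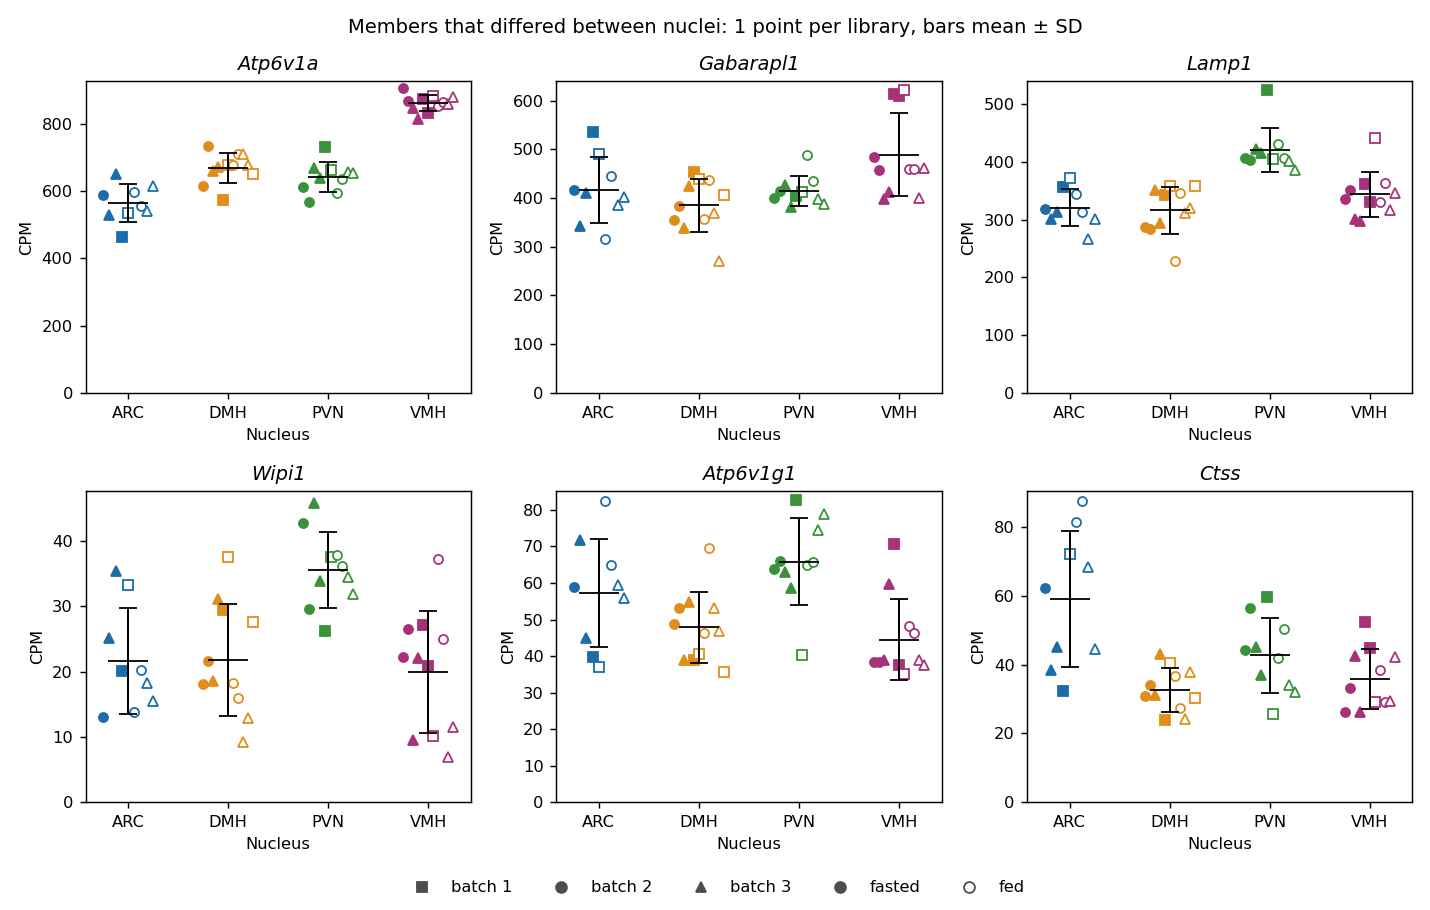
CPM (vertical axes, from 0) of 6 members in each nucleus, 1 point per library with the mean ± SD as bars, filled for fasted and open for fed, with the marker shape giving the batch. Atp6v1a of the VMH lies above all other libraries, between 815 and 905 CPM, while Wipi1, Lamp1 and Atp6v1g1 are highest in the PVN and Ctss in the ARC with overlap.

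Batch separated several members more strongly than nucleus or food. In a comparison added after the batch shares above had been seen, batch 1 was set against batches 2 and 3 over mice, with state as a covariate. Of the members 17 (48.6%) were called at an adjusted p under 0.1, 13 higher and 4 lower, beside 30.6% of all 10052 genes tested (14% higher and 16.6% lower). The count was 13 to 18 without any 1 mouse, lowest without that of ARC-86. Ulk4 (chr9:120955351-121277197), a kinase-like gene of the Ulk family, ran from 27.7 through 51.5 to 65.5 CPM in the 10 libraries of batch 1, from 65.0 through 91.0 to 147 CPM in batch 2 and from 80.1 through 99.5 to 122.9 CPM in batch 3. Its log2 difference was -1.01 ± 0.10, the largest among the members.

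Rragb was lower in batch 1 in the same way, with 45.7 ± 12.98 CPM (n = 10) against 80.1 ± 13.6 CPM (n = 31; -0.83 ± 0.11), as were Atp6v1h (-0.48 ± 0.10) and the lipid transfer gene Atg2b (-0.33 ± 0.08). Ulk1 was higher, with 128 ± 20.9 CPM against 76.2 ± 17.6 CPM (0.74 ± 0.10). Map1lc3b, the LC3 protein used to trace autophagosomes, had 131 ± 35.6 CPM against 84.0 ± 15.5 CPM (0.61 ± 0.10), Lamtor4 23.3 ± 9.20 CPM against 12.6 ± 5.11 CPM (0.92 ± 0.21), Atg9a 90.7 ± 28.2 CPM against 60.5 ± 17.99 CPM (0.54 ± 0.13, lost without the mouse of ARC-111, adjusted p = 0.119) and Gabarapl1 499 ± 90.1 CPM against 404 ± 49.0 CPM (0.29 ± 0.06). For each of these the ranges of the batches overlapped. The CPM summed over the table was 604723 to 689010 in batch 1 and 554896 to 611613 in the other batches. The median log2 difference of all genes was -0.02, and after TMM rescaling 13 members were called higher and 5 lower. Of the 12 measured microglial markers 6 were higher in batch 1 and 0 lower. Higher as well were 2 of 8 oligodendrocyte, 1 of 7 astrocyte and 1 of 7 endothelial and mural markers, with 0 lower. Of the 5 neuronal markers 1 was higher and 2 lower. Genes at 0 numbered 350 to 525 in libraries of batch 1 and 95 to 665 in the others. The part of these in the batch difference was not tested. Exons of Ulk4 overlap 759 bases of Ctnnb1, which was not analysed here.

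**Figure D4:**
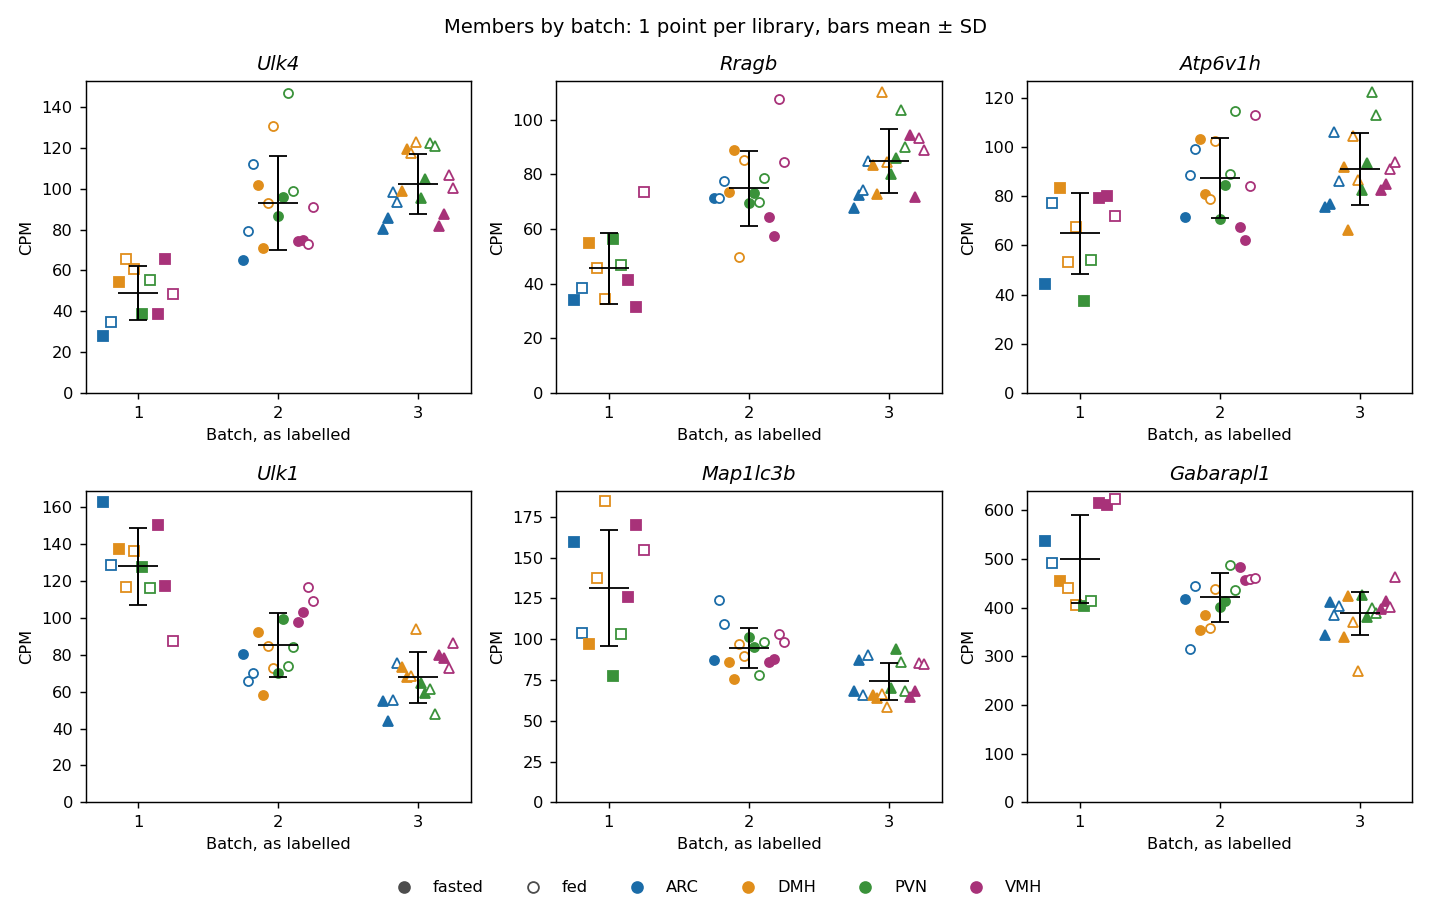
CPM (vertical axes, from 0) of 6 members by batch as labelled, 1 point per library with the mean ± SD as bars, coloured by nucleus and filled for fasted. Batch 1 is lowest for Ulk4, Rragb and Atp6v1h and highest for Ulk1, Map1lc3b and Gabarapl1 in the mean.

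The second comparison asked whether 24 hours without food moved the families, with batch as a covariate. No member passed the threshold in any nucleus, although the fast itself registered. Npy in the ARC was 326 to 1226 CPM in fasted and 195 to 370 CPM in fed mice, a log2 fold change of 1.35 ± 0.16 (limma, adjusted p = 0.00114). Members called by limma were 0 of 35 in the ARC (background 0.176% of genes), 0 in the DMH (0.0103%), 0 in the PVN (0.367%) and 0 in the VMH (0.0208%). At an unadjusted p under 0.05 there were 4 in the ARC (8.10% of all genes), 0 in the DMH (6.62%), 4 in the PVN (9.97%) and 1 in the VMH (6.98%). The median log2 fold change of the members was 0.01, 0.07, 0.02 and -0.09 in the ARC, DMH, PVN and VMH, and that of all genes 0.02, 0.01, 0.01 and -0.00.

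Taking the mouse as the unit over the 4 nuclei, 6 fasted against 6 fed mice, again called 0 of 35 members (1.33% of all genes, 128 genes). At an unadjusted p under 0.05 there were 7 members (all genes 11.2%), 4 higher and 3 lower (5.56% and 5.62%). This comparison bounds the changes more tightly. The 95% interval of the log2 fold change lay within 1 of 0 for all 35 members and within 0.5 of 0 for 24. For Atp6v1a the fold change was -0.03 with an interval of -0.12 to 0.05, for Gabarapl1 0.02 with -0.08 to 0.13, for Lamp1 -0.01 with -0.12 to 0.09, and for Map1lc3b -0.12 with -0.30 to 0.05. In single nuclei the intervals were wider, and 25 to 27 members had one within 1 of 0.

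Ulk4 had the smallest p of the mouse-level comparison. Its mouse effects, log2 levels adjusted for nucleus and centred on the mean of the mice, were -0.88 and -0.75 in the fasted and -0.59 and -0.49 in the fed mice of batch 1. In batch 2 they were 0.11 and 0.01 in fasted and 0.33 and 0.52 in fed mice, and in batch 3 0.24 and 0.39 against 0.57 and 0.54. A mouse of each state in batch 1 had a single library, VMH-85 at -0.88 and DMH-92 at -0.49, from different nuclei, while the others had 3 or 4. The fasted mice were below the fed mice of their own batch each time, with a log2 fold change of -0.27 ± 0.08 that did not pass the adjustment (limma, adjusted p = 0.155). Over alternatives that p lay between 0.0503 and 0.942. Only Atg14 showed the same separation upwards (0.30 ± 0.14, adjusted p = 0.430), and the 2 members make 5.71% beside 2.86% of all genes, or 1.42% higher and 1.45% lower.

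Other members with an unadjusted p under 0.05 over the 4 nuclei were Atp6v1h at -0.25 ± 0.09 (limma, adjusted p = 0.262), Rraga at -0.21 ± 0.10, Atp6v0e2 at 0.19 ± 0.07 (adjusted p = 0.241), Atp6v0a2 at 0.29 ± 0.14 and Ctsf at 0.27 ± 0.13. The Atp6v0a2 value fell to 0.13 without 1 mouse and to 0.07 under another alternative. With the mouse as a random block over all libraries, Atp6v1h (adjusted p = 0.0938) and Ulk4 were called. The correlation estimated for that block was -0.00225, so libraries of a mouse counted as nearly independent. Of the members 3 (Atp6v0a2, Atp6v0e2 and Ulk3) had a positive and 4 (Atg5, Gabarapl2, Rraga and Ulk4) a negative fold change in all 4 nuclei, which is 8.57% and 11.4% beside 10.6% and 9.89% of all genes.

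In the ARC the smallest p was that of Ctss. Its values were 32.2, 38.4, 45.1 and 62.1 CPM in fasted and 44.5, 68.2, 72.2, 81.5 and 87.4 CPM in fed mice. Fasted values were lower with overlap, and the log2 fold change was -0.59 ± 0.20 (adjusted p = 0.458). Microglial markers summed to 157 to 173 CPM in fasted and 174 to 238 CPM in fed ARC, and their part in the Ctss value was not tested. Atp6v1h was 44.4, 71.6, 75.6 and 76.9 CPM in fasted and 77.2, 86.4, 88.8, 99.4 and 106 CPM in fed ARC. The groups did not overlap, as in 2.13% of all genes, and the fold change was -0.45 ± 0.16 (adjusted p = 0.483).

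Atp6v1h in the PVN was 37.4, 70.9, 82.5, 84.6 and 93.6 CPM in fasted and 54.1, 89.2, 113, 115 and 122.7 CPM in fed mice (-0.43 ± 0.14, adjusted p = 0.307). The lowest value of each group came from batch 1. In the VMH Rragb was 31.5 to 94.4 CPM with a median of 60.9 in the 6 fasted mice and 73.6, 84.5, 89.1, 93.2 and 108 CPM in the fed mice (-0.55 ± 0.17, adjusted p = 0.516). The values overlap, and within batches the difference was -1.01, -0.64 and -0.15. In the PVN Wipi2 was 63.9, 75.4, 79.8, 85.5 and 87.4 CPM in fasted and 51.3, 55.7, 60.7, 66.4 and 73.3 CPM in fed mice (0.35 ± 0.16, adjusted p = 0.495), with overlap. Atg14 was the 1 member without overlap in the PVN (1.31% of all genes), with 16.3 to 25.9 CPM in fasted and 9.76 to 16.0 CPM in fed mice (adjusted p = 0.615), and 0 members were without overlap in the DMH (0.4%) and the VMH (0.5%).

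**Figure D5:**
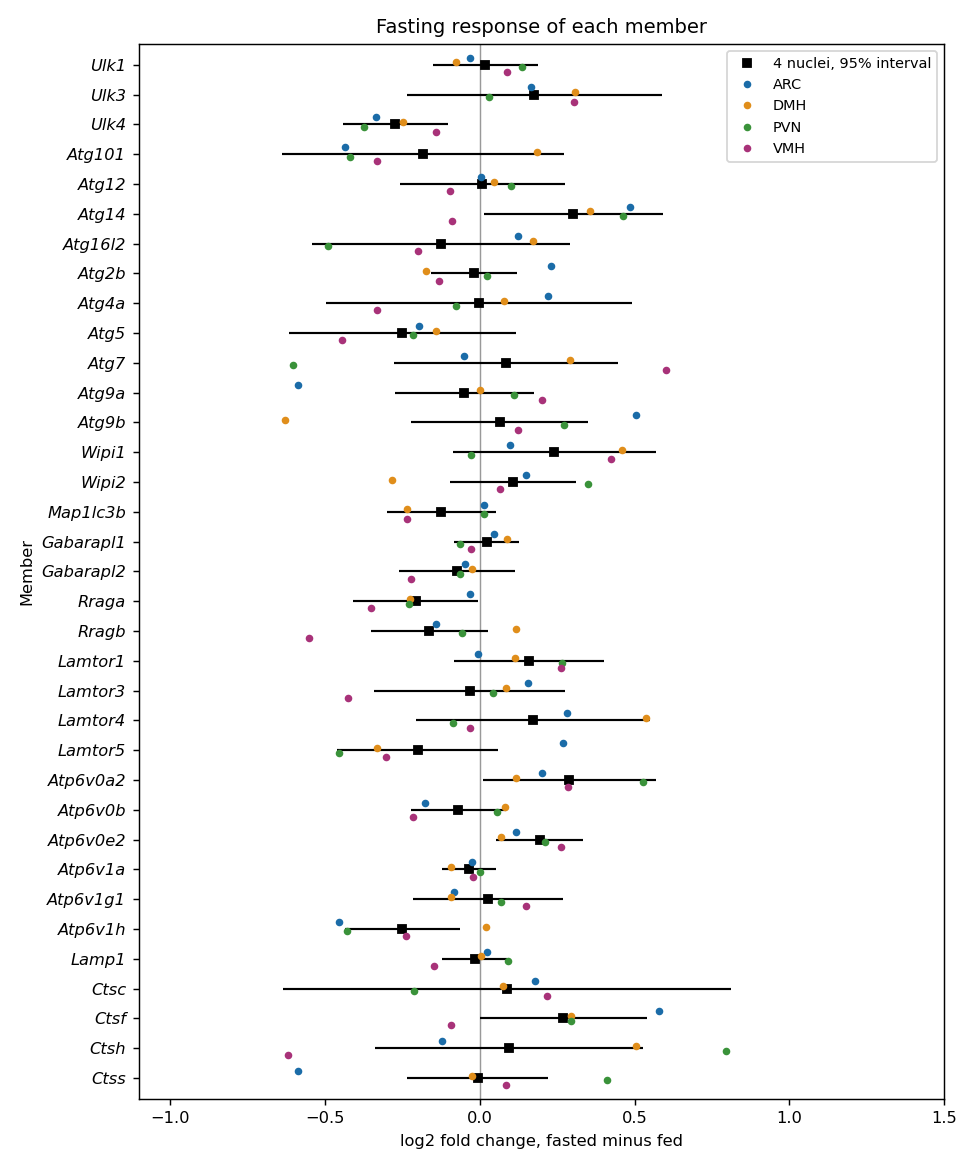
log2 fold change of each member, fasted minus fed (horizontal axis), over the 4 nuclei with its 95% interval (black squares and lines, 12 mice) and in each nucleus alone (coloured points). All 35 intervals lie between -1 and 1, and the points of single nuclei scatter on both sides of 0.

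Whether the response to food differed between nuclei was tested by the interaction of nucleus and state within mice. Limma called 0 members (0% of all 10121 genes). At an unadjusted p under 0.05 there were 3 members (8.57%; all genes 5.56%), namely Ctss, Atg9a and Ctsh. Each had an adjusted p of 0.853 (limma, Benjamini-Hochberg). For Ctss the fold change was -0.59 in the ARC and 0.41 in the PVN. Leaving out 1 mouse gave -0.73 to -0.42 in the ARC and 0.21 to 0.51 in the PVN.

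The wider pathway was followed in 3 lists. Of the autophagy partners 19 of 36 listed genes were measured, of the mTORC1 arm 22 of 42, and of the other lysosomal enzymes and membrane proteins considered here 21 of 62. Fasting was called by limma in 0 genes of the autophagy partners and the mTORC1 arm, in every nucleus and over the 4 nuclei, and at an unadjusted p under 0.05 there were at most 4 of 19 and 3 of 22 in a nucleus, both in the VMH (6.98% of all genes), and 2 of each over the 4 nuclei (11.2%). In the lysosomal list 0 of these genes were called in any single nucleus, where 0, 1, 0 and 3 had an unadjusted p under 0.05 in the ARC, DMH, PVN and VMH (8.10%, 6.62%, 9.97% and 6.98% of all genes). Over the 4 nuclei 3 had one (11.2%), 2 higher and 1 lower, and 1 was called (1.33%). That gene was Cln6, which encodes an endoplasmic reticulum protein needed for lysosomal enzymes. It is scarce, with 1.21 to 16.1 CPM and a median of 6.87 CPM in the 20 fasted libraries and 0.48 to 29.3 CPM and a median of 3.04 CPM in the 21 fed libraries. The ranges overlap widely. Its log2 fold change was 1.04 ± 0.25 (limma, adjusted p = 0.0510), and the call was lost without any of 7 mice, with adjusted p up to 0.172, with no batch covariate and with equal mouse weights. Of the 7 astrocyte markers measured, 1 was called higher in the same comparison and 0 lower, with 5 above 0 and a median log2 fold change of 0.20. The called marker was Agt (0.49 ± 0.12, limma, adjusted p = 0.0532). The part of these markers in the Cln6 value was not tested.

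Between nuclei genes of the lists were called in both directions in the VMH. There 2 of the 19 autophagy partners were called higher and 2 lower, of the 22 genes of the mTORC1 arm 3 higher and 5 lower, and of the 21 other lysosomal genes 7 higher and 2 lower (all genes 16% higher and 16.3% lower). Sort1, a sorting receptor for lysosomal proteins, had 167 ± 21.1 CPM in the VMH and 83.1 ± 11.2 CPM in the ARC, with log2 differences from the other nuclei of 0.76 ± 0.09 and -0.57 ± 0.09. Mtor, the kinase that Rag GTPases recruit, had 201.5 ± 26.4 CPM in the VMH (0.55 ± 0.08) and 122 ± 17.6 CPM in the ARC (-0.38 ± 0.08). Pink1, which marks damaged mitochondria for autophagy, differed by 0.41 ± 0.09 in the VMH and -0.51 ± 0.09 in the ARC, and the peptidase Tpp1 by 0.40 ± 0.11 and -0.57 ± 0.12. These 4 genes, chosen after their values were seen, were highest in the VMH and lowest in the ARC in their means. With them counted, that order was found in 3 of the 19 autophagy partners, 3 of the 22 mTORC1 genes, 4 of the 21 lysosomal genes and 2 of the 35 members, Atp6v1a among them, beside 11.1% of all genes. Ids, which degrades heparan and dermatan sulfate, had 1082 ± 180 CPM in the VMH (0.57 ± 0.05) but did not follow that order. Its mean was lowest in the PVN, at 712 CPM beside 743 CPM in the ARC. The 9 genes called lower in the VMH had log2 differences from -0.73 for Mitf, a relative of TFEB, and -0.70 for the enzyme Aga to -0.22 for Sesn3. Among them were Rheb, the GTPase that activates mTORC1 (-0.28 ± 0.09), Wdr59 (-0.39 ± 0.14), the lysosomal membrane protein Scarb2 (-0.40 ± 0.14) and Stx17, which fuses autophagosomes with lysosomes (-0.38 ± 0.13). In the PVN 5 of the 21 other lysosomal genes were higher and 2 lower (all genes 10.9% and 12.2%), led among the higher by Ostm1, a partner of a lysosomal chloride transporter (0.53 ± 0.13). Of the partners there 1 was higher and 2 lower, and of the mTORC1 arm 2 were higher and 0 lower. In the ARC 0 lysosomal genes were higher and 5 lower, 0 partners higher and 2 lower, and 1 gene of the mTORC1 arm higher and 2 lower (all genes 9.75% and 11.6%). In the DMH 0 genes of the lists were higher, and 1 lysosomal gene and 1 of the mTORC1 arm were lower (7.94% and 6.48%).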

How the data were processed

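Hypothalamic nuclei of male Snord116+/-P mice were captured by laser, and their RNA was amplified (Ovation RNA-Seq System V2) and sequenced. Per the study's methods reads were mapped to GRCm38 with TopHat, and outlier libraries were removed, which can lower the spread between replicates. The submitters' processing notes also name CASAVA 1.7, TopHat2 2.0.11 and Cufflinks 2.2.1. How reads were assigned to genes, and whether by strand, is not given in the sources used here. The authors deposited CPM (counts per M reads). The table used here skips the gene identifiers from ENSMUSG00000000861 to ENSMUSG00000028747. Of its columns 2 could be tied to no sample and were left out, and 2 of 43 samples were not analysed here.

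Depth was estimated from the step between low values, of which 96.9% to 98.6% were whole multiples within 0.01 reads. No count test was run, since 101 genes (0 members) had positive values under 0.01 CPM.

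Tests used limma 3.58.1 in R 4.3.3 (lmFit, eBayes with trend) on log2(CPM + 0.5), so fold changes of scarce genes are understated. A gene entered a test if it reached 1 CPM in a number of libraries equal to the size of the smaller group. P-values, from tests of both directions, were adjusted by Benjamini-Hochberg over all genes tested, with a threshold of 0.1. Fasting was fitted per nucleus with batch, and over nuclei on mouse effects weighted by libraries. Nuclei were compared with mouse as a fixed block, since they come from the same animals. Deviations from group means of libraries of one mouse had a median correlation of 0.0658 (57 pairs, 15 over 0.1), against 0.0515 for different mice of one state and batch (51 pairs). The scripts were tested on simulated data.

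The members and lists were chosen with earlier results of these data known. Named members were those called in any comparison of fasting or of the response between nuclei, the 3 with the smallest p per direction in each fasting comparison, the 4 largest called rises and falls per nucleus (both among members whose higher group averaged 5 CPM or more), and the highest and lowest per kilobase in each family. Genes of like pattern were to be named for members with a nucleus difference of at least 1, and 0 qualified. Alternatives were other pseudocounts and filters, TMM rescaling, library weights, no batch covariate, random or no mouse block, equal mouse weights, leaving out each mouse and, added after seeing the data, leaving out batch 1. The comparison of batches was also added then. A gene of the lysosomal list is not reported here and is left out of its counts.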

Additional observations from a re-analysis of the deposited data

Results flagged for a closer look

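Within each group of 4 to 6 libraries, a library was singled out where its gap to the nearest of the others was too large a part of the range (Dixon's criterion). Of 240 groups of the named members 23 met it, where chance gives about 1 in 20, or 12. These 23 values lay in 15 libraries, and 15 of the values came from 7 libraries of batch 1. The cause was not tested.

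Ulk4, Ulk1 and Rragb of batch 1 libraries stood apart in the direction of their batch difference. Ulk4 was 38.8 CPM in PVN-86 and 86.8 to 105 CPM in the other fasted PVN libraries. Ulk1 was 129 CPM in ARC-111 and 55.6 to 75.5 CPM in the other fed ARC libraries. Rragb was 34.1 CPM in ARC-86, against 67.7 to 72.4 CPM in the other fasted ARC libraries, and 38.4 CPM in ARC-111, against 71.5 to 84.8 CPM in the other fed ones. Ulk3 was 25.3 CPM in DMH-86 (others 8.64 to 9.48) and, outside batch 1, 26.2 CPM in PVN-308 (others 6.36 to 9.52).

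Of the autophagosome genes, Gabarapl1 was 623 CPM in VMH-111 (others 400.9 to 463), Map1lc3b 155 CPM in VMH-111 (84.9 to 103) and Atg7 61.2 CPM in ARC-111 (10.8 to 19.9). Atg14 was 25.9 CPM in PVN-86 (16.3 to 18.6), and Wipi1 9.57 CPM in VMH-305 (20.8 to 27.1). Atg16l2 was 18.9 CPM in DMH-86 (7.34 to 9.74) and 9.78 CPM in PVN-101 (14.9 to 16.1).

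Among lysosomal genes, Lamp1 was 525 CPM in PVN-86 (others 402 to 423) and 227 CPM in DMH-125 (310.9 to 358). Lamtor4 was 44.2 CPM in VMH-111 (4.75 to 13.2). Atp6v1h was 44.4 CPM in ARC-86 (71.6 to 76.9), and Atp6v0a2 23.3 CPM in VMH-313 (33.5 to 37.5). Ctsf was 59.7 CPM in DMH-111 (26.98 to 38.5), and Ctsh 2.06 CPM in VMH-311 (5.51 to 7.51). Ctsc, the scarcest member, was 20.3 CPM in ARC-308 (0.684 to 4.29), 15.2 CPM in PVN-111 (2.62 to 4.27) and 0.691 CPM in VMH-125 (2.62 to 3.25).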

How the results depend on the processing

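Among the member values followed one by one, none reversed its direction under the other settings, without 1 mouse or without batch 1. Values of members not followed in this way, such as fold changes near 0, may have changed sign. Within single batches, of the calls between nuclei, those of Wipi1, Wipi2 and Ulk1 in the VMH did, as given above. For the genes whose alternatives were followed one by one, 1417 values kept their side of the threshold, 95 lost the call and 2 gained one. The gains came with the mouse as a random block over all libraries, which called 2 members for fasting over the 4 nuclei where the fit on mouse effects called 0. These were Ulk4 (-0.28, adjusted p = 0.0503) and Atp6v1h (-0.26, adjusted p = 0.0938). The correlation estimated for that block was -0.00225, so libraries of a mouse counted as nearly independent. Other members were followed only through the counts of calls, which could rise, as in the VMH from 12 to 14 without 1 mouse.

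No paired analysis was possible because fasted and fed mice share no number. For the nuclei, dropping the replicate block gave 6, 6, 5 and 11 members in the ARC, DMH, PVN and VMH, and the random block 6, 5, 5 and 11. The interaction called 0 under both.

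Leaving out 1 mouse at a time moved the ARC count between 3 and 7, the DMH count between 2 and 6, the PVN count between 5 and 7 and the VMH count between 8 and 14. The ARC count was 3 without the mouse of ARC-305 or ARC-313. Without batch 1 the DMH count was 3. For the lysosomal list over the 4 nuclei the count of 1 became 0 with the filter at 5 CPM, where Cln6 was not tested, with no batch covariate and with equal mouse weights, and leaving out 1 mouse gave 0 to 1. The other causes were not tested.

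Ctsc and Atg4a, under 5 CPM in the mean, had few reads in the shallow libraries, and the intervals of their fold changes were wide. Their within-group SD of log2 levels was 1.22 and 0.60. That of the more abundant Atg101 and Lamtor4 was 1.08 and 0.78. The part of depth in these spreads was not tested.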
